A study of Solanum lycopersicum with 12 samples.

Results

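The 53 tomato genes described here were close to silent in roots without aluminium (Al) and were clearly measured in roots with it. They were chosen from a table of 35768 gene models by their mean level in FPKM, which scales sequenced fragments by transcript length and by the size of the library. A chosen gene had a mean of at most 1 FPKM without Al in the wild type (WT) and in the slstop1 mutant, and a mean of at least 10 FPKM with Al in both. The rise with Al was therefore what selected these genes, and it is given below as a description, with no test. Of the 20459 gene models that were at 1 FPKM or less without Al in both genotypes, the 53 made up 0.259%. Of the 6058 that reached 10 FPKM with Al in both genotypes they made up 0.875%.

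The series sequenced total RNA from roots of Solanum lycopersicum plants 20 days after germination. Plants were WT or carried the slstop1 mutation, and received a solution at pH 4.7 with 0 or 60 µM Al. The acidic solution was thus shared by all 4 groups, the controls included. Each group had 3 biological replicates, 12 libraries in all; the labels do not say how many plants a replicate held, nor which lesion or how many lines the mutant stood for.

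In acid soil Al dissolves as an ion that stops root growth. Plants answer with exported organic acids that bind the ion, with changes of the cell wall and with general stress programmes. In Arabidopsis the zinc finger transcription factor STOP1 controls tolerance of acidity and Al, and slstop1 is the mutant of its tomato homologue. A gene at or near 0 in a control and measured under stress shows a change of state more plainly than one that was already active, but its fold change has almost no denominator. For such genes the level reached says more than the ratio. The table carries Solyc identifiers and no gene names, so the genes are given by identifier, and their functions and sequences were not used here. The number after g in an identifier orders gene models along the chromosome given before it. For the same reason the labelled tissue was not checked against marker genes.

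The mutant label was checked first. SlSTOP1 (Solyc11g017140.2, an identifier known from published nomenclature) stood at 69.3 ± 11.98 FPKM (SD, n = 3) in WT and 36.0 ± 3.34 FPKM in slstop1 without Al, and at 85.1 ± 3.93 and 28.9 ± 1.20 FPKM with Al. It was lower in every slstop1 library than in every WT library. The number of gene models at 1 FPKM or more was lower with Al, between 12227 and 13550 per library against 13966 to 14753 without. In whole roots, fewer cells of a type and less RNA per cell cannot be told apart.

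Without Al the 53 genes were at the floor of the table. The 9 genes listed at 0 in all 6 libraries without Al were Solyc01g087490.3, Solyc02g076630.1, Solyc03g005040.1, Solyc03g044460.1, Solyc03g121190.3, Solyc05g055370.1, Solyc06g053260.1, Solyc08g023410.1 and Solyc09g066400.2. The median of the 53 means was 0.0967 FPKM in WT against 0.200 in slstop1, and the highest single value in any library was 1.90 FPKM. Traces were unevenly spread over the libraries. Replicate 2 of slstop1 without Al had 38 of the 53 genes above 0 and 10 of them above 1 FPKM. Replicate 3 of WT had 21 above 0 and 1 above 1 FPKM, and replicate 3 of slstop1 had 25 and 1. Summed over the 53 genes, the libraries without Al held 13.2, 12.4 and 8.07 FPKM in WT against 18.1, 25.6 and 7.01 in slstop1. The ranges of the genotypes overlapped.

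With Al the same genes together held 1774, 1609 and 1888 FPKM in the WT libraries and 2072, 2299 and 2063 FPKM in the slstop1 libraries. Every slstop1 sum lay above every WT sum. That was 0.229 to 0.266% of all FPKM in WT and 0.287 to 0.319% in slstop1. The median of the 53 means was 24.8 FPKM in WT, with a range of 10.8 to 107 FPKM, and 24.0 FPKM in slstop1, with a range of 10.4 to 168 FPKM. Averaged over the 6 libraries with Al, 14 genes reached 50 FPKM, 32 reached 20 FPKM and 3 reached 100 FPKM. None ranked among the 1000 most abundant genes of WT with Al, where the highest, Solyc04g072375.1, was number 1274. In slstop1 with Al 2 ranked among the first 1000, the higher of them, Solyc04g072280.3, at number 766. The group therefore went from near 0 to moderate levels and not to the top of the transcriptome.

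Ratios of the group means could be formed for the 40 genes above 0 in WT without Al and the 42 above 0 in slstop1 without Al. Their median was 112-fold in WT, with a lowest value of 17.3-fold for Solyc02g070010.1, and 122-fold in slstop1, with a lowest value of 16.0-fold for Solyc09g066350.1. The highest ratio in WT, 2764-fold for Solyc01g096720.3, rests on a mean of 0.0133 FPKM without Al. The highest in slstop1, 623-fold for Solyc09g008670.3, rests on 0.197 FPKM. With denominators this far below 1 FPKM, such ratios carry little information. For 52 of the 53 genes the lowest library with Al lay above the highest library without Al, and for 35 of them all 6 libraries with Al were at 10 FPKM or more. The exception was Solyc02g076630.1, whose libraries with Al read 39.5, 0 and 39.3 FPKM in WT against 37.8, 0 and 0 in slstop1. An exact 0 beside such values can be a failed estimate, so this gene shows no level that its replicates share.

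**Figure D1:**
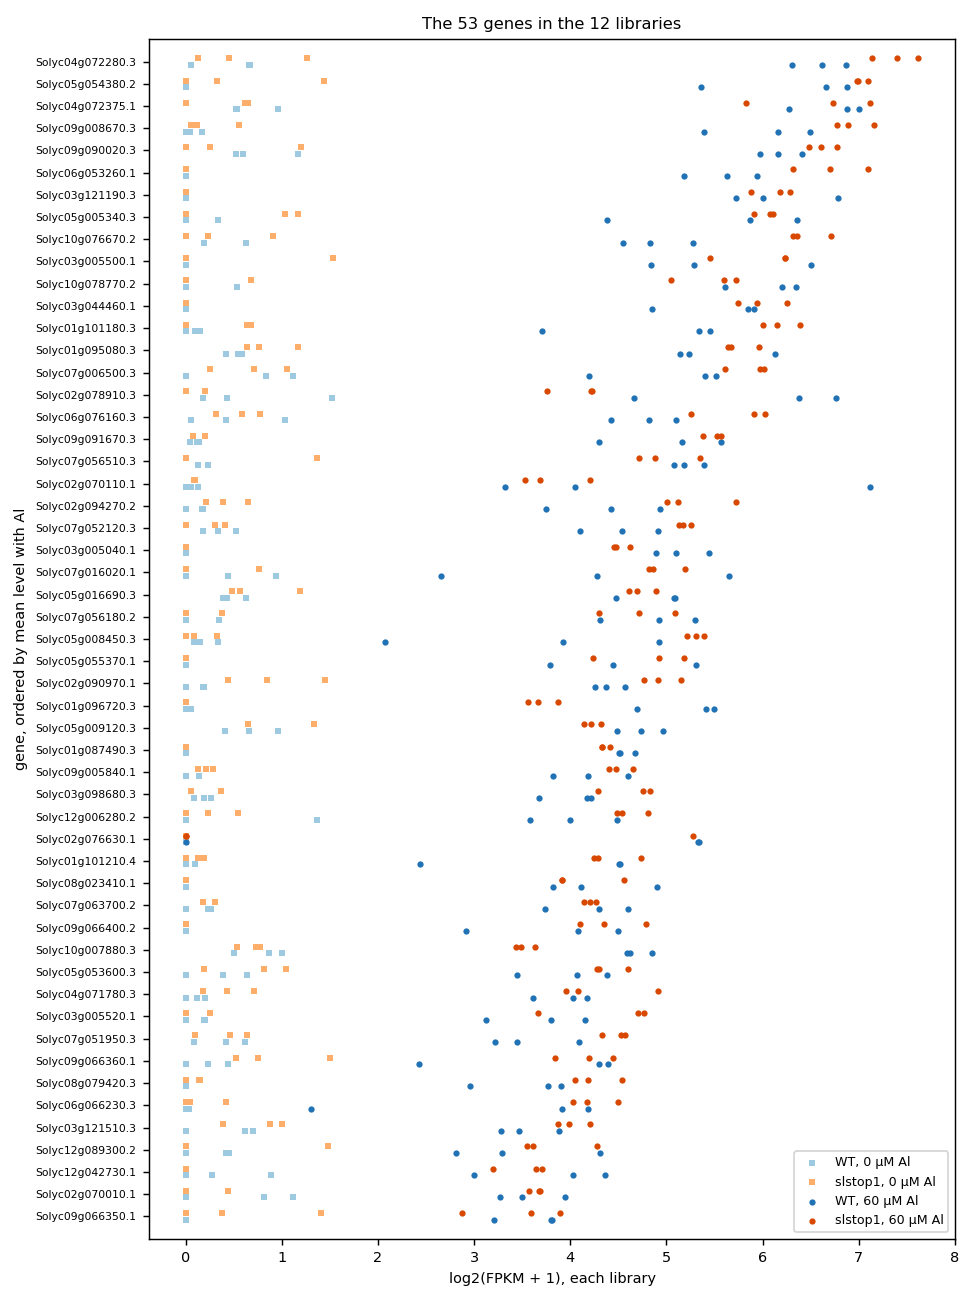
Level of each of the 53 genes (rows, ordered by their mean with Al) in each of the 12 libraries, as log2(FPKM + 1) on the horizontal axis; squares are libraries without Al, circles libraries with Al, blue WT and orange slstop1. Squares lie at or below 1.90 FPKM, and circles lie to their right in every row but that of Solyc02g076630.1, which has circles at 0.

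The 10 genes with the highest levels with Al gave the plainest picture of the switch. Solyc04g072280.3 read 0.59, 0.58 and 0.04 FPKM in WT against 0.37, 1.39 and 0.09 in slstop1 without Al. With Al it read 77.9, 97.4 and 116 FPKM in WT against 140, 196 and 167 in slstop1, where all 3 libraries lay above those of WT. That difference did not pass the test described below (limma adjusted p = 0.125). Solyc05g054380.2 was listed at 0 in WT without Al, read 1.71, 0.25 and 0 FPKM in slstop1 without Al, and rose to the second highest level. With Al it read 116, 40.0 and 100 FPKM in WT against 127, 136 and 126 in slstop1. The slstop1 libraries were close together here, while WT replicate 2 stood far below the other 2.

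Solyc04g072375.1, which lies 12 gene models from Solyc04g072280.3 on chromosome 4, had the reverse order of spread. It read 128, 76.3 and 117 FPKM in WT with Al and 55.8, 138 and 105 FPKM in slstop1 with Al, so that the genotypes overlapped. Solyc09g008670.3 was at 0.05 FPKM in WT against 0.197 in slstop1 without Al, on average, and read 40.9, 89.0 and 70.3 FPKM in WT against 108, 142 and 117 in slstop1 with Al. All slstop1 libraries were the higher ones. The same held for Solyc09g090020.3, at 72.2 ± 11.2 FPKM (SD, n = 3) in WT and 97.8 ± 10.1 FPKM in slstop1 with Al. For Solyc09g090020.3 the difference did not pass the test described below (limma adjusted p = 0.399).

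Solyc06g053260.1 and Solyc03g121190.3 reached the highest levels among the 9 genes listed at 0 without Al. The former read 48.5, 60.7 and 35.2 FPKM in WT against 103, 136 and 78.9 in slstop1 with Al. The latter read 63.2, 109 and 51.7 FPKM in WT against 76.8, 57.8 and 71.4 in slstop1. The genotypes were apart for the first and overlapped for the second. The remaining genes of the first 10 were Solyc05g005340.3, Solyc10g076670.2 and Solyc03g005500.1, at 52.7 ± 30.8, 29.2 ± 7.82 and 51.8 ± 33.3 FPKM in WT against 64.6 ± 4.56, 87.9 ± 13.6 and 63.7 ± 18.1 in slstop1 with Al.

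Among the other genes listed at 0 without Al, Solyc03g044460.1 reached 47.8 ± 17.4 FPKM in WT against 62.9 ± 11.5 in slstop1. Solyc01g087490.3 was the steadiest of all 53 in both genotypes. It read 21.9, 21.7 and 24.5 FPKM in WT against 19.1, 20.3 and 19.2 in slstop1 with Al, a coefficient of variation (SD over mean) of 6.88% and 3.57%. The highest slstop1 library was under the lowest WT library, but the difference did not pass the test described next (log2 -0.21 ± 0.133 SE, limma adjusted p = 0.386). Solyc05g055370.1, Solyc08g023410.1 and Solyc09g066400.2 stood between 14.7 and 27.5 FPKM in both genotypes.

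Whether the level reached with Al differed between the genotypes was tested with limma on log2(FPKM + 1), fitted over all 12 libraries and 15903 tested genes, with Benjamini-Hochberg adjustment over all of them and calls at an adjusted p under 0.05. All 53 genes passed the filter on low values (1 FPKM in at least 3 libraries) through their libraries with Al. The selection set a floor of 10 FPKM in both genotypes but did not use their difference; it keeps out genes that one genotype failed to induce. By their means, 35 of the 53 genes were higher in slstop1 with Al and 18 were lower. The median difference was 0.44 on the log2 scale, beside -0.05 over the 6058 genes with the same floor and -0.16 over all tested genes. Without WT replicate 2 with Al the median difference of the 53 was 0.13. After median-of-ratios scaling, which moved the median of all genes to -0.01, 42 were higher and 11 lower.

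With Al, 4 of the 53 passed the test as higher and 4 as lower in slstop1, 7.55% each. Over all tested genes 1.12% were called higher and 8.12% lower. Over the 6058 genes with the same floor of 10 FPKM the shares were 1.37% higher and 5.76% lower. The share called higher was thus above both backgrounds and the share called lower close to them, on a handful of genes and with no test of that difference. The count of higher calls was 1 with a pseudocount of 0.1, 9 with a pseudocount of 5 and 11 after median-of-ratios scaling, so it was not stable. The calls over all genes moved too: that scaling gave 486 higher and 812 lower of 15763, beside 178 and 1291 of 15903 in the main analysis, and 2 of the 53 were then called lower. A pseudocount of 0.1 gave 137 higher and 1675 lower over all genes, and a pseudocount of 5 gave 201 and 812. By library values, all slstop1 libraries lay above all WT libraries for 17 of the 53 genes (32.1%) and below them for 6 (11.3%). The same orders were found for 13.7% and 22.7% of the 6058 genes. A comparable set was 206 genes that rose at least 10-fold in both genotypes from more than 1 FPKM. Of these, 158 (76.7%) were higher in slstop1. All slstop1 libraries lay above WT for 91 (44.2%) and below for 9 (4.37%). By limma 4.85% of the 206 were called higher and 0.971% lower. Beside this set the 53 had the larger share of calls in both directions, and more so for lower calls. That comparison rests on few genes and was not tested. More genes higher in slstop1 than in WT was therefore also the order among genes that Al raised from a measurable level.

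The gene with the firmest higher level in slstop1 was Solyc10g076670.2. It read 22.5, 27.5 and 37.8 FPKM in WT against 104, 81.2 and 79.0 in slstop1 with Al. Its log2 difference of 1.58 ± 0.266 (SE, limma adjusted p = 0.00548) was called in 22 of 23 alternative analyses (adjusted p from 0.000668 to 0.166). Solyc06g053260.1, given above, differed by 1.12 ± 0.224 (limma adjusted p = 0.0118) and was also called in 22 of 23 (0.00759 to 0.0574). Its call was lost without replicate 2 of slstop1 with Al (adjusted p = 0.0574).

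Solyc09g008670.3, with a log2 difference of 0.93 ± 0.259 (limma adjusted p = 0.0480), and Solyc07g051950.3 were near the threshold. The latter read 16.0, 9.92 and 8.28 FPKM in WT against 22.1, 22.7 and 19.2 in slstop1 with Al (log2 0.89 ± 0.248, limma adjusted p = 0.0464). Each of these calls was kept in 9 of 23 alternatives, with adjusted p up to 0.273 and 0.330. Solyc05g008450.3, which was not called, had the highest fitted log2 difference, although its ratio of means, 2.48, was below the 3.01 of Solyc10g076670.2. It read 3.20, 29.4 and 14.1 FPKM in WT against 38.8, 41.1 and 36.0 FPKM in slstop1 with Al. The spread within WT was as wide as the gap (log2 1.67 ± 0.529, limma adjusted p = 0.0772). The value rested on single WT libraries: it was 0.88 without replicate 1 (adjusted p = 0.0979) and 2.31 without replicate 2 (adjusted p = 0.0110).

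Lower in slstop1 with the greatest stability were Solyc01g096720.3 and Solyc10g007880.3, both called in all 23 alternatives. Solyc01g096720.3 read 41.5, 44.1 and 24.9 FPKM in WT against 11.6, 13.7 and 10.8 in slstop1 with Al (log2 -1.50 ± 0.209, limma adjusted p = 0.00199; 0.000569 to 0.0156 over the alternatives). Without Al it was listed at 0 in 5 libraries and at 0.04 FPKM in the other. Solyc10g007880.3 read 27.9, 23.5 and 23.0 FPKM in WT against 11.4, 10.3 and 9.81 in slstop1 with Al (log2 -1.17 ± 0.172, limma adjusted p = 0.00297; 0.000368 to 0.0208). Its slstop1 mean of 10.5 FPKM was just inside the floor.

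Solyc02g078910.3 had the most negative difference of the 53 (log2 -1.87 ± 0.489, limma adjusted p = 0.0376). It read 82.0, 24.4 and 108 FPKM in WT against 17.7, 17.6 and 12.5 in slstop1 with Al. There was no overlap, but WT replicate 2 lay nearer to slstop1 than to its own group, and the difference passed in 10 of 23 alternatives (adjusted p up to 0.139). Solyc03g005040.1, listed at 0 without Al, read 28.8, 42.5 and 33.3 FPKM in WT against 20.9, 23.6 and 21.2 in slstop1 (log2 -0.63 ± 0.162, limma adjusted p = 0.0353). It passed in 8 of 23 (adjusted p up to 0.141).

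Several genes of middle level lay apart between the genotypes without being called. Solyc06g076160.3 read 27.2, 20.4 and 33.3 FPKM in WT against 37.3, 64.4 and 59.3 in slstop1 with Al (log2 0.96 ± 0.294, limma adjusted p = 0.0697). Solyc02g094270.2 read 29.6, 12.4 and 20.4 FPKM in WT against 33.8, 51.9 and 31.1 in slstop1 (log2 0.91 ± 0.291, limma adjusted p = 0.0779). Solyc07g052120.3 read 29.2, 16.2 and 22.3 FPKM in WT against 34, 35 and 37.1 in slstop1 (log2 0.66 ± 0.213, limma adjusted p = 0.0813). In each of them the lowest WT library was replicate 2, and all slstop1 libraries were above WT. The same separation, also without a call, was seen for Solyc08g079420.3, Solyc03g098680.3, Solyc12g006280.2 and Solyc07g006500.3, whose WT means were 11.1, 15.4, 15.8 and 34.4 FPKM and whose slstop1 means were 18.3, 24.0, 23.6 and 57.8 FPKM.

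Also apart was Solyc02g090970.1, at 18.1, 22.7 and 19.8 FPKM in WT against 26.3, 34.6 and 29.2 in slstop1 with Al. In the other direction, Solyc05g009120.3 read 21.3, 30.3 and 25.7 FPKM in WT against 16.6, 19.0 and 17.6 in slstop1. Neither was called (limma adjusted p = 0.185 and 0.205). Of the genes given above, Solyc04g072280.3, Solyc05g054380.2, Solyc09g090020.3 and Solyc05g008450.3 also lay apart, higher in slstop1, without a call (limma adjusted p = 0.125, 0.305, 0.399 and 0.0772). Solyc01g087490.3 lay apart and lower in slstop1, also without a call (limma adjusted p = 0.386). Besides all of these, the called genes and Solyc01g101180.3, given below, the libraries of the genotypes overlapped with Al for the other genes. No difference was called for them, which does not show that the levels were the same. Solyc07g063700.2 was at 18.1 ± 5.48 FPKM (SD, n = 3) in WT and 17.4 ± 0.8 FPKM in slstop1 with Al, and Solyc05g016690.3 at 29.0 ± 6.74 and 25.6 ± 2.69 FPKM. Solyc10g078770.2 read 47.99, 80.3 and 72.9 FPKM in WT against 47.6, 32.1 and 51.8 in slstop1. Its mean was lower in the mutant (log2 -0.60 ± 0.280, limma adjusted p = 0.222). Solyc01g095080.3, Solyc07g056510.3, Solyc07g056180.2 and Solyc09g091670.3 stood between 25.7 and 53.5 FPKM in both genotypes. Solyc03g121510.3, Solyc04g071780.3, Solyc05g053600.3, Solyc09g005840.1 and Solyc12g089300.2 stood between 10.8 and 21.8 FPKM.

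**Figure D2:**
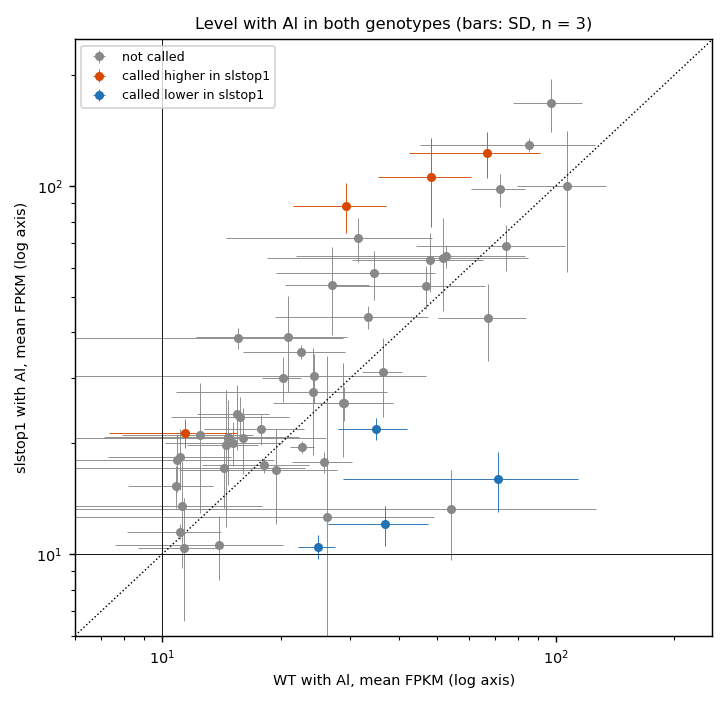
Mean level with Al in slstop1 (vertical) against WT (horizontal), in FPKM on log axes, for the 53 genes; bars are SD over 3 libraries and are cut at the edge of the plot, solid lines mark the floor of 10 FPKM, and the dotted line marks equal levels. Of the 53 points 35 lie above the dotted line; the 4 genes called higher in slstop1 are orange and the 4 called lower are blue.

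Without Al the genotypes could hardly differ in these genes, since all means were at most 1 FPKM. None of the 53 was called by limma, and 1 had an unadjusted p under 0.05; over all tested genes 0.0692% passed as higher and 0.107% as lower in the mutant. The interaction, the Al response of slstop1 minus that of WT, contains the same libraries with Al together with the trace levels without it. Its median over the 53 genes was 0.15 on the log2 scale. It was called for 1 of the 53, Solyc01g096720.3, as a lower response in slstop1 (log2 -1.48 ± 0.295, limma adjusted p = 0.0426). Over all tested genes 0.975% had a lower and 0.0503% a higher response. It passed in 6 of 22 alternatives (adjusted p between 0.00973 and 0.143), with the same direction in all of them.

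The spread between replicates was wider in WT. The coefficient of variation with Al had a median of 34.5% in WT and 15.5% in slstop1 over the 53 genes, beside 16.0% and 7.51% over the 6058 genes with the same floor. Replicate 2 of WT often stood apart. In that library 15 of the 53 genes (28.3%) were at less than 0.5 times the mean of replicates 1 and 3, beside 2.43% of the 6058 genes and 5.34% of the 206 genes that rose from more than 1 FPKM. The same measure gave 5 genes for replicate 1 and 1 for replicate 3 of WT, and 2, 1 and 1 for the slstop1 replicates. The labels give no batch, and no test was made of these counts.

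The low genes of WT replicate 2 fell far below their group. Solyc06g066230.3 read 17.1, 1.46 and 14.1 FPKM in WT with Al, and Solyc07g016020.1 read 49.2, 5.28 and 18.4 FPKM. In slstop1 these genes were steady, at 18.0 ± 3.25 and 30.4 ± 4.60 FPKM (SD, n = 3). The library was not simply low. Solyc02g070110.1 read 8.97, 138 and 15.5 FPKM in WT with Al, so that replicate 2 stood 11.3 times above the mean of the others, and 13.3 ± 3.64 FPKM in slstop1. It had the largest coefficient of variation in WT (134%), and with Solyc02g076630.1 and Solyc07g016020.1 it was among the 3 widest of all. Altogether 3 genes were more than 2 times above the mean of the others in that library. Without WT replicate 2, 30 of the 53 genes were higher in slstop1 and 23 lower, and the median ratio of slstop1 to WT went from 1.25 to 1.11; 4 were called higher and 3 lower.

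**Figure D3:**
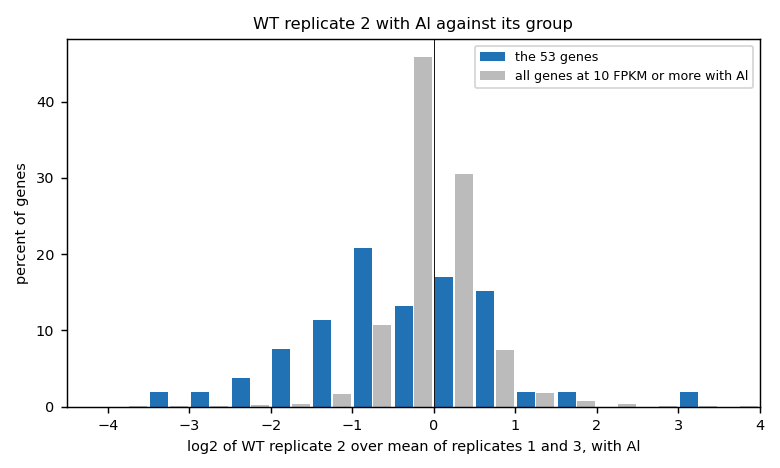
Distribution of the level in WT replicate 2 with Al over the mean of replicates 1 and 3 (horizontal, log2; Solyc02g076630.1, at 0, is not drawn), as percent of the 53 genes (blue) and of the 6058 genes at 10 FPKM or more with Al in both genotypes (grey). The grey bars pile up near 0, while the blue bars spread to the left, 28.3% of the genes lying below -1 with the gene at 0 counted.

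By their identifiers the genes were spread over most of the genome. Chromosomes 3, 5, 7 and 9 held 7 each, which is 2.01, 2.77, 2.74 and 2.74 per 1000 gene models of these chromosomes. Chromosome 2 held 6, chromosome 1 held 5, chromosomes 4, 6, 10 and 12 held 3 each and chromosome 8 held 2. Among these the rate ran from 0.791 per 1000 on chromosome 8 to 1.69 on chromosome 2. Chromosome 11, with 6.82% of the gene models, held none of the 53. These are counts of a few genes and were not tested, so they do not show that any chromosome held more or fewer than its share. The suffix after the point, the version of a gene model, was 1 for 17 of the 53 (32.1%). It was 1 for 15.8% of the 6058 genes with the same floor, for 49.4% of the near-silent gene models and for 36.1% of all gene models. For this suffix the 53 lay between the active and the near-silent genes. For suffix 2 they did not, with 17.0% beside 20.5% of the active and 25.1% of the near-silent genes.

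Most of the 53 genes had no other of the 53 close by. Counting gene models in identifier order, 7 of the 53 (13.2%) had another of the 53 within 5 gene models, in 3 stretches on chromosomes 1, 3 and 9; the number was 6 within 2 gene models and 7 within 10. Of the 206 genes that rose from more than 1 FPKM, 29.1% had another of their own set within 5, but a larger set has closer neighbours by its size alone. The share expected for 53 genes placed at random was not computed. The counts therefore do not show whether the 53 lay closer together than that. The stretch on chromosome 9 was the only run of 3. Solyc09g066350.1 and Solyc09g066360.1 are adjacent, and Solyc09g066400.2 follows 4 gene models later. With Al they read 13, 8.23 and 12.9, 20.0, 4.37 and 18.7, and 21.5, 6.56 and 16.0 FPKM in WT, each lowest in replicate 2. In slstop1 they stood at 10.4 ± 3.81, 17.1 ± 3.72 and 20.7 ± 5.39 FPKM. The gene model just before them, Solyc09g066340.1, reached 2.25 ± 1.33 FPKM in WT against 4.21 ± 1.42 in slstop1 with Al, and was at 0 in WT and 0.343 FPKM in slstop1 without. The 3 gene models between them stayed at or below 0.33 FPKM in every library.

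On chromosome 1, Solyc01g101180.3 and Solyc01g101210.4 enclose a single gene model, Solyc01g101190.3, which behaved alike but missed the floor in WT. Solyc01g101180.3 read 42.9, 12.02 and 39.4 FPKM in WT against 63.3, 82.9 and 69.9 in slstop1 with Al. Solyc01g101190.3 read 11.6, 0.64 and 4.39 FPKM in WT against 10.4, 14.6 and 8.17 in slstop1. Solyc01g101210.4 read 21.7, 4.42 and 21.9 FPKM in WT against 18.5, 25.6 and 18.0 in slstop1. All of them were lowest in WT replicate 2 and highest in slstop1 replicate 2. For Solyc01g101180.3 the slstop1 libraries all lay above WT, a difference that was not called (log2 1.35 ± 0.393, limma adjusted p = 0.0572) and passed in 5 of 23 alternatives. Without WT replicate 2 it was 0.79 (adjusted p = 0.0639). Where gene copies resemble each other, reads can be split between them, and whether these neighbours do was not tested.

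On chromosome 3, Solyc03g005500.1 and Solyc03g005520.1 are separated by Solyc03g005510.2, which was at 0 in all libraries but 1, where it read 0.55 FPKM. Solyc03g005500.1 read 89.7, 27.6 and 38.0 FPKM in WT against 74.2, 74.2 and 42.8 in slstop1 with Al. Solyc03g005520.1 read 7.70, 16.7 and 12.9 FPKM in WT against 11.7, 26.2 and 25.1 in slstop1. The pair did not share an order of libraries in WT: the first was highest and the second lowest in replicate 1. The next gene model, Solyc03g005530.1, went the opposite way, in WT from 110 ± 73.2 to 0.540 ± 0.491 FPKM, and in slstop1 from 163 ± 57.9 to 1.64 ± 0.622 FPKM. A further pair on chromosome 2, Solyc02g070010.1 and Solyc02g070110.1, lies 12 gene models apart.

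**Figure D4:**
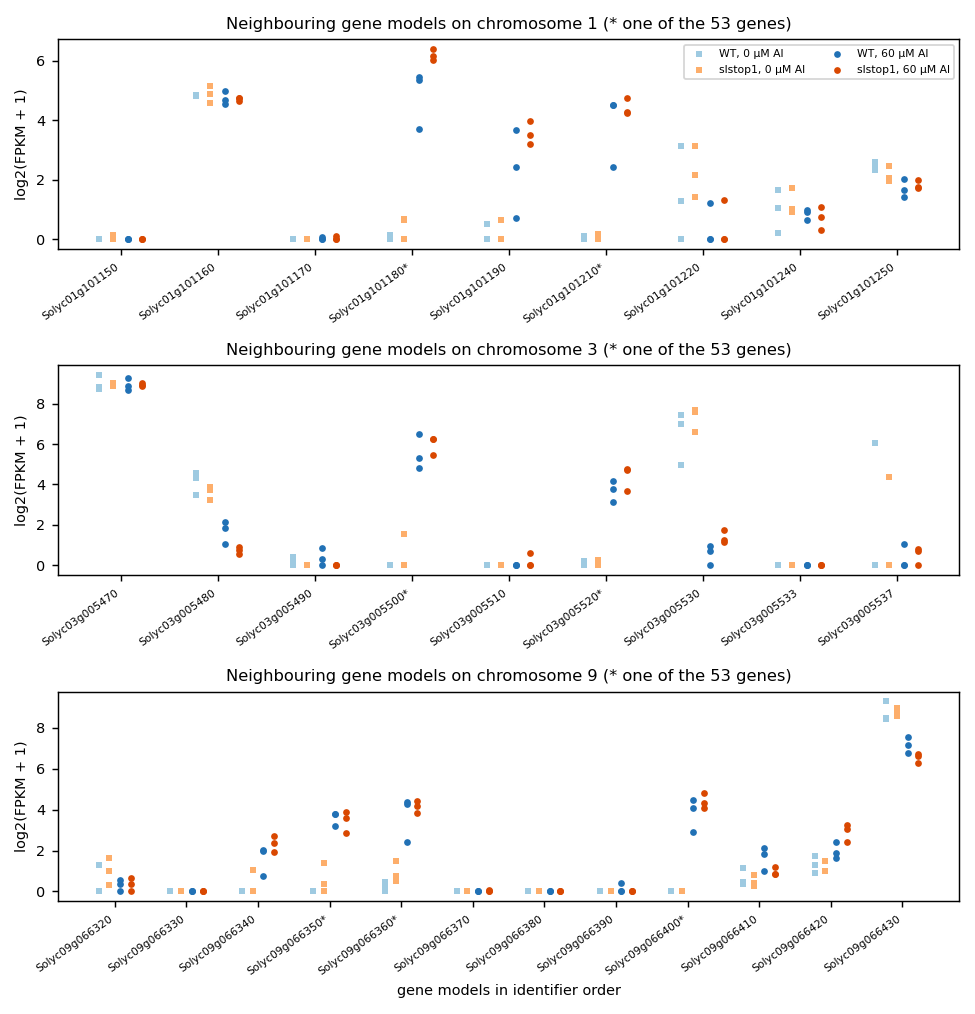
Levels of the gene models in the 3 stretches where the genes lie close together, as log2(FPKM + 1) in each library against identifier order; asterisks mark the 53 genes, squares are libraries without Al and circles libraries with Al, blue WT and orange slstop1. Marked genes rise from near 0 in all 3 stretches, Solyc01g101190 rises between its marked neighbours, and Solyc03g005530 falls next to one.

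The thresholds cut through a continuous range. The genes nearest inside the limit without Al were Solyc09g066360.1, Solyc02g090970.1 and Solyc05g009120.3, with slstop1 means of 0.980, 0.963 and 0.887 FPKM. Nearest outside it were Solyc12g057080.2, with 1.003 FPKM in WT, and Solyc10g083580.2 and Solyc01g006050.2, with 1.04 and 1.05 FPKM in slstop1. The lowest means with Al inside the floor were 10.4, 10.5 and 10.6 FPKM, all in slstop1, for Solyc09g066350.1, Solyc10g007880.3 and Solyc12g042730.1. Just under it were Solyc06g065060.1, at 9.73 FPKM in WT, and Solyc10g018300.2 and Solyc05g007950.3, at 9.72 and 9.66 FPKM in slstop1.

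Another 55 near-silent genes reached 10 FPKM with Al in only 1 genotype, 25 in WT and 30 in slstop1. For most of these the other genotype was not silent: it had a mean of at least 5 FPKM for 13 of the 25 and 22 of the 30, and under 1 FPKM for 6 and 4. In WT 11 of the 25 had a single library at 10 FPKM or more, and 7 had all 3 at that level; in slstop1 the numbers were 7 and 15 of 30. A clear case of the first kind, picked after its values were seen, was Solyc03g034320.3, at 47.9, 49.98 and 60.4 FPKM in WT against 5.59, 4.03 and 5.86 in slstop1 with Al. It was left out of the 53 because slstop1 stayed under the floor.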

How the data were processed

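The authors deposited one table of 35768 gene models in 12 libraries, whose values are taken as FPKM: they have decimals and columns summing to 696287 to 719916. Tools named, per the submitters' processing notes, are Cufflinks, StringTie, HISAT2 and TopHat2, with neither role nor version; the genome build is not stated in the labels. Since read totals are unknown, intervals for counting error could not be formed. Groups and replicate numbers come from the sample titles.

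The genes, comparison sets and tests were chosen with earlier results of these data known. The 15903 genes that reached 1 FPKM in at least 3 libraries were transformed as log2(FPKM + 1), which understates changes of low genes, and fitted as group means with limma 3.58.1 in R 4.3.3 (eBayes with trend), two-sided, after the procedure had been tested on simulated data. P-values measure the spread between the 3 samples of a group, estimated once per gene over all 4 groups. The libraries without Al, where the 53 were near 0 by selection, enter that estimate. For the 9 genes listed at 0 there, they add no spread. Where they add little or none, the SE can understate the spread between the libraries with Al. The p-values of the 53 can then be too small. Fitted on only the 6 libraries with Al, 3 of the 53 were called higher and 2 lower in slstop1. Over the 13090 genes tested in that fit, 293 were called higher and 1056 lower. Other values were computed with pandas 2.3.3 and drawn with matplotlib 3.10.9 in Python 3.11.15. No gene had the same values as another of the 53.

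Named genes were, by rule, the 10 highest with Al, those called between genotypes, close neighbours, those at the thresholds, the 3 most variable and those listed at 0 without Al; the rest of the 53, Solyc03g034320.3 and the gene models beside neighbours were added after their values were seen. The reference gene table matched 0 identifiers, so descriptions were not used here. Alternatives were pseudocounts of 0.1 and 5, no filter, a mean of at least 5 FPKM, 3 scalings, eBayes without trend or robust, only the libraries compared, a replicate block and each library left out.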

Additional observations from a re-analysis of the deposited data

Results flagged for a closer look

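The Al response of Solyc01g096720.3 passed the interaction test as lower in slstop1, with a log2 value of -1.48 (slstop1 minus WT; limma adjusted p = 0.0426). The selection held its levels without Al near 0 in both genotypes. The interaction is therefore nearly the genotype difference with Al (log2 -1.50) again, from the same libraries, and not a separate result. All 3 slstop1 libraries with Al, at 10.8 to 13.7 FPKM, lay below the WT libraries, at 24.9 to 44.1 FPKM. The call was lost in 16 of 22 alternatives, among them median-of-ratios scaling, quantile normalisation and the replicate block (adjusted p between 0.00973 and 0.143 over all 22).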

How the results depend on the processing

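The number of genes found was 32 with at most 0.5 FPKM without Al, 26 with at least 20 FPKM with Al, 222 with limits of 2 and 5 FPKM, 21 when every library had to comply, 70 by medians (49 of the 53 among them) and 72 after median-of-ratios scaling (all 53 among them), and 51 to 62 with a library left out. Genes called higher in slstop1 with Al, 4, became 1 with a pseudocount of 0.1, 9 with a pseudocount of 5, 2 without a filter, 11 after median-of-ratios scaling and 1 to 6 with a library left out (1 without replicate 2 of slstop1 with Al, 2 without replicate 1 or 3 of slstop1 with Al, without any library of slstop1 without Al, and without replicate 1 or 2 of WT without Al). Genes called lower, 4, became 2 with a pseudocount of 0.1, without a filter, after median-of-ratios scaling or quantile normalisation and with only the 6 libraries compared, and 2 to 4 with a library left out (2 without replicate 3 of WT with Al, any of slstop1 with Al, or replicate 1 or 3 of slstop1 without Al). The single lower interaction call became 0 with a pseudocount of 0.1, without a filter, after each of the 3 scalings and with the replicate block, and 0 to 1 with a library left out; a pseudocount of 5 gave 2 lower and 1 higher. None of the 53 was called without Al in any alternative that tested them. The selection at 1 FPKM or less in both genotypes left little room for such a call. With only the 6 libraries without Al, none of the 53 passed the filter. The cause of these shifts was not tested. The 10 genotype differences followed through the alternatives were those called with Al and those of Solyc05g008450.3 and Solyc01g101180.3. They changed sign in none, but in all 10 genes the libraries of the genotypes were already apart, which left little room for that. Samples with the same replicate number did not deviate together (correlations of deviations from -0.24 to 0.093 over 18 pairs), so the numbers were not treated as a pairing. With 3 replicates per group this cannot show that such samples were handled apart. With the replicate block 3 genes were called higher and 3 lower with Al.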
